A study of Mus musculus with 14 samples.

Results

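Chemokines and their receptors were taken as every gene on the array whose symbol follows the pattern of the Ccl, Cxcl, Cx3cl and Xcl chemokines or of the Ccr, Cxcr, Cx3cr and Xcr receptors, each with a number. The pattern gave 51 genes on 65 probes, 34 chemokines and 17 receptors, of 16593 genes named on the array. Chemokines are small secreted proteins that steer leukocytes along a gradient, and their receptors are G protein-coupled receptors on the responding cells. Some are made constantly, such as Cxcl12, which retains progenitor cells through Cxcr4, whereas others are induced in inflammation and draw monocytes, lymphocytes or granulocytes into a tissue. In brain the best known pair is fractalkine (Cx3cl1), which neurons make and anchor in their membrane, and its receptor Cx3cr1 on microglia.

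The samples were skeletal muscle and brain (cortex) of male C57BL/6J mice that entered 1 of 3 diets at 13 months of age. The control group ate a normal diet freely, the CR group received 70% of that food, and the βL group ate the normal diet with 0.066% β-lapachone, a quinone that the enzyme Nqo1 reduces with NADH as a donor. RNA was measured on Illumina Mouse-8 BeadChips, 8 arrays of muscle (2 control, 3 CR, 3 βL) and 6 of brain (2 per diet). The sources used here do not say whether arrays of a group stand for different mice, or which muscle was taken, so each p-value refers to differences among arrays that could be technical. They also do not give the chip of each array, so tissue and chip cannot be told apart.

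Of all probes, 43.3% to 45.9% lay above background on the muscle arrays and 53.9% to 55.4% on the brain arrays, where above background means a detection p under 0.05 against the negative control beads. Marker genes followed the tissue labels: 6 of 6 skeletal muscle genes were above background on at least 2 muscle arrays and 2 of 6 on brain arrays, whereas of 5 neuronal genes 4 were detected in brain (Snap25 was not) and 1 in muscle. Muscle control replicate 1 stood apart, whose log2 values correlated with those of the other muscle arrays at 0.971 on average, and the rest at 0.977 to 0.984. Log2 fold changes against control that are printed here and moved by over 1.5 times without it are also given without it.

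Promoters of 5 members that the comparisons below turn on are shown, each as 300 bases around the start of the gene (RefSeq, GRCm38.p6, 5′ to 3′ on the strand of the gene). Ccl8 (chr11:82114935-82115234, plus strand), Ccl9 (chr11:83578587-83578886, minus strand) and Ccl6 (chr11:83593038-83593337, minus strand) belong to the clustered CC chemokines of chromosome 11, where Ccl9 and Ccl6 follow each other in the order of the members. Cxcl14 (chr13:56296502-56296801, minus strand) shares its chromosome with Ccl28 among the members, and Cx3cl1 (chr8:94771930-94772229, plus strand) lies between Ccl22 and Ccl17 in their order. Capitals mark matches on either strand to TATAAA (the core of a TATA box), TGANTCA (the AP-1 motif), the STAT motif (TTC and GAA with 3 bases of any kind between them) or the NF-kB consensus.
Ccl8: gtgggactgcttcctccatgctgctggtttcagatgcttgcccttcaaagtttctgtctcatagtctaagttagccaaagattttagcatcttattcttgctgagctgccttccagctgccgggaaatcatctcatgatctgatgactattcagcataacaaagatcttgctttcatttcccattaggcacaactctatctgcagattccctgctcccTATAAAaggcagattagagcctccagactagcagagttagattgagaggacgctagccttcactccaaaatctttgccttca
Ccl9: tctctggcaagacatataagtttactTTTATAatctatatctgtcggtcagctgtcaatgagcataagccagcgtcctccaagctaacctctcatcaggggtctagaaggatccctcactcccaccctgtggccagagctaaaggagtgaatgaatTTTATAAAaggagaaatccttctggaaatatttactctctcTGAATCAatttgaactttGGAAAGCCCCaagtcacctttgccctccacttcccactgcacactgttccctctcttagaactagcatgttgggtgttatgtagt
Ccl6: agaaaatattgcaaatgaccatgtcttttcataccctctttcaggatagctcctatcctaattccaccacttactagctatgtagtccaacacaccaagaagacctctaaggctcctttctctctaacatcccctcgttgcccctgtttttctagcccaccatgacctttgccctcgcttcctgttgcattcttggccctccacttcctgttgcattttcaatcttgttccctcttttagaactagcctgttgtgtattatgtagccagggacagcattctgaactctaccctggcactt
Cxcl14: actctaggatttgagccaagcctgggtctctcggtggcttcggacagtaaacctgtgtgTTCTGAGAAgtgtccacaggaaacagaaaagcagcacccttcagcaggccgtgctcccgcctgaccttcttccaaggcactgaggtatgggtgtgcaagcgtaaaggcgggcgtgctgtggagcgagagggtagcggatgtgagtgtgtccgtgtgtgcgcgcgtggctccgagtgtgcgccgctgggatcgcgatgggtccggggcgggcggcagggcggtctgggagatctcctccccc
Cx3cl1: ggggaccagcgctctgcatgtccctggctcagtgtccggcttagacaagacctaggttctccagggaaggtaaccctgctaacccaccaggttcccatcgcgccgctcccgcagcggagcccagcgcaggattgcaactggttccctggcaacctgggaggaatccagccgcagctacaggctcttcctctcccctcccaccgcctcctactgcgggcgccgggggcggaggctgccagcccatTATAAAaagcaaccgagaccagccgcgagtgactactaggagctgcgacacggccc
Ccl8 carried a TATAAA 32 bases before its start and none of the other motifs. Ccl9 carried a match to the NF-kB consensus at 35 bases and to TGANTCA at 53 bases before the start, besides 3 matches to TATAAA, where 2 of them overlap on opposite strands. Ccl6 had none of the 4 motifs in this window, although the longest stretch it shared with the Ccl9 window, 13 bases, was longer than that of any other pair among the 5. Cxcl14 had the STAT motif only and Cx3cl1 TATAAA only. Promoters could be matched for 37 of the 51 members, with 39 start sites. TATAAA was found in 28.2% of these and in 13.6% of all 32851 promoters of the same length, and the NF-kB consensus in 25.6% against 8.46%. For TGANTCA the shares were 15.4% and 7.81%, and for the STAT motif 7.69% and 8.3%. Such a match is a run of letters and not a measured binding site.

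Most members were not detected. In muscle 19 of 51 (37.3%) were above background on at least 2 arrays, against 53.6% of all genes, and 9 (17.6%) on all 8 arrays against 42.3%. In brain the counts were 11 (21.6%, against 60% of all genes) and, on all 6 arrays, 6 (11.8%, against 53.3%). In 30 members no muscle array and in 36 no brain array gave a signal above background, which says that they were not detectable here and not that they were absent. The threshold passes about 5% of background probes on any array by construction, so the 2 members above background on a single muscle array and the 4 on a single brain array carry little weight. They were Cxcl1 and Cx3cr1 in muscle, and Cxcl1, Cxcl16, Ccl24 and Ccr7 in brain.

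**Figure D1:**
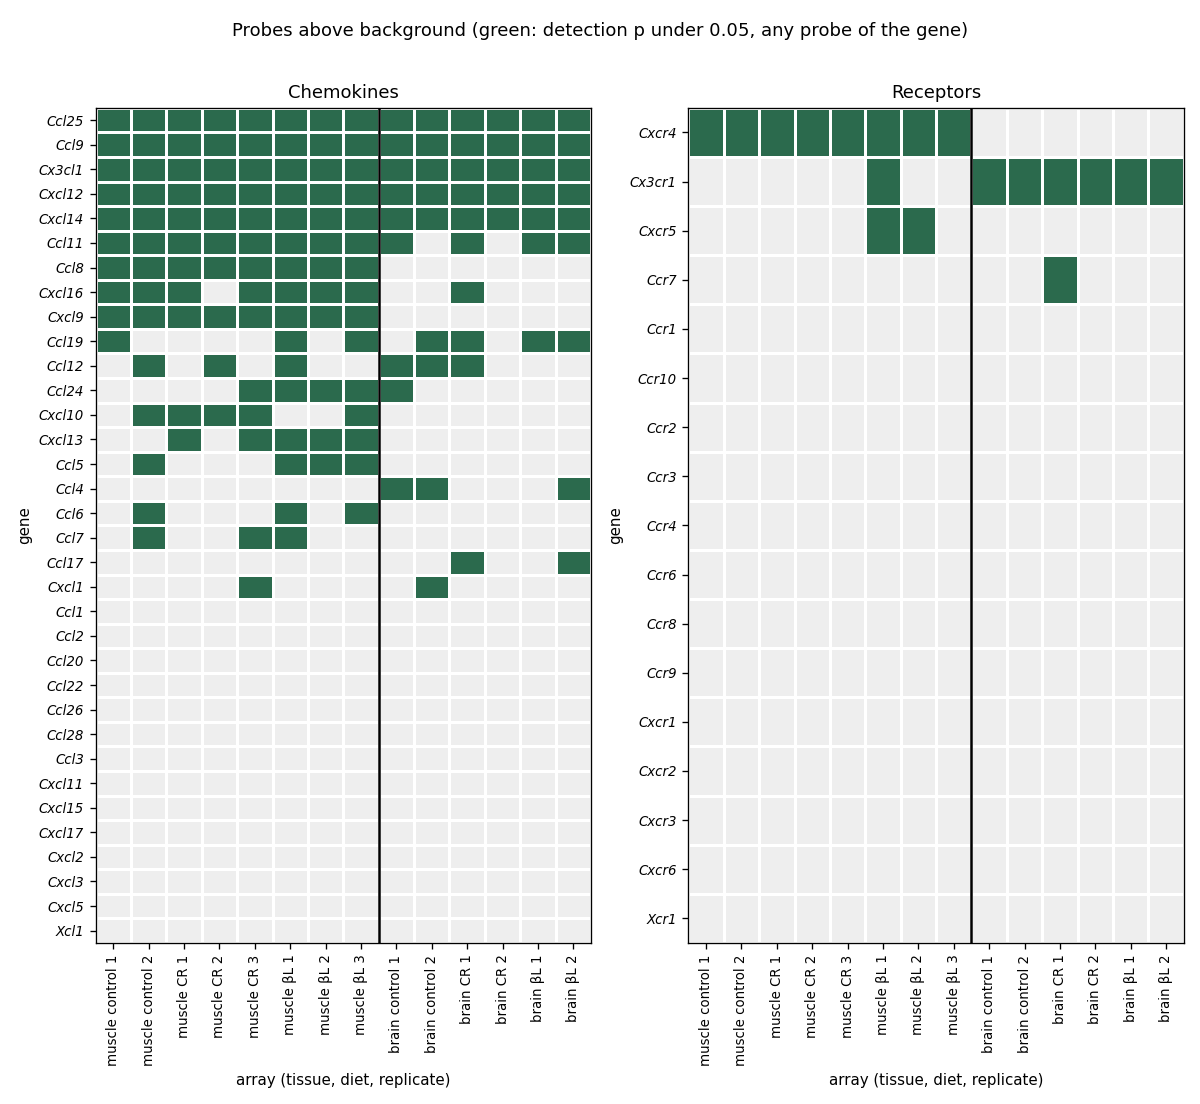
Detection of the 51 members on the 14 arrays. Rows are genes, columns are arrays by tissue, diet and replicate, and green marks a detection p under 0.05 for any probe of the gene; 19 members were above background on at least 2 muscle arrays and 11 on at least 2 brain arrays.

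The ligands accounted for most of what was detected. Of 34 chemokines, 17 passed in muscle and 10 in brain, and of 17 receptors 2 passed in muscle (Cxcr4 and Cxcr5) and 1 in brain (Cx3cr1). The chemokines above background on every array of both tissues were Ccl9, a monocyte and myeloid cell attractant found in rodents, Ccl25, best known from thymus and gut, Cxcl12, Cxcl14 and Cx3cl1. Ccl11 (eotaxin, which draws eosinophils), Ccl8 (a monocyte and lymphocyte attractant), Cxcl9 (an interferon-γ-induced T cell attractant) and the receptor Cxcr4 were above background on every muscle array. Ccl8, Cxcl9 and Cxcr4 were on no brain array. The inflammatory chemokines Ccl2, Ccl3, Cxcl2 and Cxcl5 and the receptors Ccr1, Ccr2, Ccr3 and Cxcr3 were above background on none of the 14 arrays. Cxcl12 has 5 probes on the array, and 3 of these were above background on all arrays while the other 2 were on none. Its detected probes are therefore not a measure of every transcript of the gene.

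The 14 arrays, normalized together, were used to ask in which tissue each member was brighter. Of the 22 members detected on at least 2 arrays of either tissue, 19 were called at an adjusted p under 0.05 (limma, Benjamini-Hochberg over 10765 genes), 4 higher and 15 lower in brain, against 83.2% of all genes. Many entered only through the tissue in which they were bright, so the count says little about chemokines. Over the 8 members detected in both tissues, 5 were called, 1 higher and 4 lower in brain, against 83.1% of the 8026 genes detected in both. The median brain minus muscle difference was -0.44 on the log2 scale for these members and -0.25 for those genes.

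Cx3cl1 was the member called higher in brain among those 8. Its log2 intensity was 5.73 to 7.14 with a median of 6.41 on the muscle arrays, and 12.27 to 12.48 with a median of 12.37 on the brain arrays. The tissues did not overlap, with a log2 difference of 5.89 (SE 0.14), or 59.3-fold (adjusted p = 1.14e-12). The muscle signal was dim, and without background correction the log2 difference was 4.89. Its receptor Cx3cr1 was at 5.04 to 5.92 (median 5.38) in muscle, where 1 of 8 arrays was above background, and at 8.62 to 9.68 (median 9.52) in brain. With the muscle signal taken as background, Cx3cr1 was at least 12.5-fold higher in brain (adjusted p = 7.69e-11), a bound set as described below for other members. Ligand and receptor of the fractalkine pair were thus both brighter in brain.

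The chemokines called lower in brain included Ccl11, Ccl9, Cxcl12 and Ccl19. Ccl11 was at 9.70 to 10.53 (median 9.94) in muscle and 4.98 to 5.30 (median 5.18) in brain, a difference of -4.82 (SE 0.11, adjusted p = 5.62e-13). Its brain signal was near background, above it on 4 of 6 arrays and on 0 at a detection p under 0.01. Ccl9 was at 7.45 to 9.94 (median 8.70) in muscle and 5.34 to 5.76 (median 5.50) in brain, a difference of -3.22 (SE 0.17, adjusted p = 1.87e-09). Neither Ccl11 nor Ccl9 overlapped between tissues. Without background correction the differences were -3.17 for Ccl11 and -1.96 for Ccl9, so the sizes depend on the handling of dim signal. Cxcl12 was at 11.44 to 12.23 (median 11.97) in muscle and 10.18 to 10.73 (median 10.36) in brain, and the difference was -1.49 (SE 0.13, adjusted p = 2.26e-07). Ccl19, a ligand of Ccr7 that guides lymphocytes and dendritic cells, differed by -0.57 (SE 0.17, adjusted p = 0.00711). Its signal was near background in both tissues, above it on 3 muscle and 4 brain arrays, and on 1 and 0 at a detection p under 0.01. Without background correction the difference of Ccl19 was -0.23. Ccl25 (-0.28, SE 0.13, adjusted p = 0.0557), Cxcl14 (-0.30, SE 0.16, adjusted p = 0.0951) and Ccl12 (-0.08, SE 0.28, adjusted p = 0.806), a mouse chemokine that draws monocytes through Ccr2, were not called. The other probe of Cxcl14, above background on all arrays of both tissues, lay the other way. Its intensity before normalization was 388.5 to 550.5 in brain and 205.5 to 320.2 in muscle, and it was not tested between tissues. The 2 probes thus disagree on the tissue in which Cxcl14 was brighter.

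For members above background on no brain array only a lower bound can be given, since the brain value is background. The mean in muscle was set against the brain mean of, on each array, the dimmest signal still above background, or the signal of the probe where that was higher. The mean of the brighter side includes any of its arrays at background, and with such arrays the value is not a strict bound. By this bound Ccl8 was at least 6.12-fold higher in muscle (adjusted p = 3.03e-07), Cxcl9 at least 4.62-fold (adjusted p = 3.62e-08) and Cxcr4 at least 2.95-fold (adjusted p = 4.09e-08). For Cxcl13, Cxcl10, Ccl5, Ccl6, Ccl7 and Cxcr5, each at background on some muscle arrays, the values ran from 1.13-fold to 2.14-fold. Ccl4 and Ccl17 were above background on no muscle array, and their brain signal was too dim for a bound. Cxcl16, a ligand of Cxcr6 detected on 7 muscle arrays and 1 brain array, was by the same measure 2.70-fold higher in muscle (adjusted p = 5.65e-06).

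**Figure D2:**
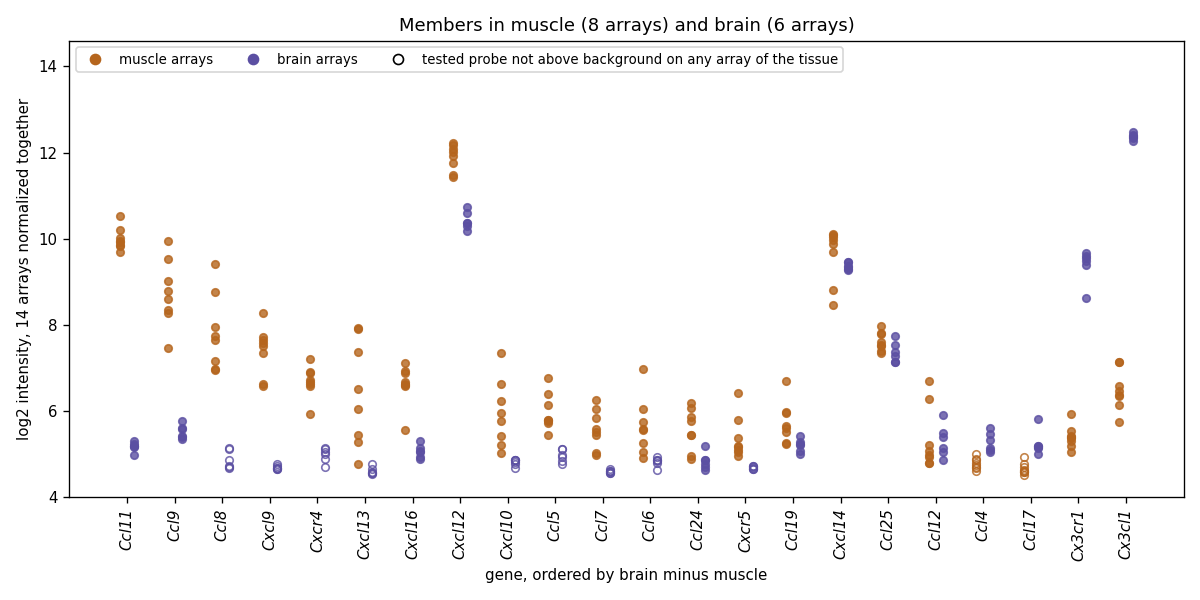
Log2 intensity of the 22 members detected in either tissue, all 14 arrays normalized together. Each point is an array (muscle left, brain right of each gene), and open points mark a tested probe above background on no array of the tissue; Cx3cl1 and Cx3cr1 were brighter in brain and Ccl11 and Ccl9 in muscle with no overlap.

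In muscle the diets were compared on the 19 detected members after normalization within the tissue. No member was called in any of the 3 contrasts (limma, adjusted p under 0.05), where 0% of all 8898 genes were called for CR against control and 0.0225% for βL against control and for βL against CR. The comparison of CR with control also had 0 members at an unadjusted p under 0.05, against 5.12% of genes. For βL against control there were 8 of 19, against 10.4% of genes, 6 of these higher and 2 lower on βL. For βL against CR there were likewise 8 of 19, against 9.62%, again 6 higher and 2 lower. The 2 contrasts share the βL arrays, and those against control share the control arrays. The methods' t-test gave 0, 3 and 3 members under 0.05 in the same order, against 4.44%, 5.64% and 8.53% of genes, and none after adjustment. Members that passed the filter mostly through the βL arrays had to be higher there, so the 9 members above background on all 8 arrays are the fairer set. Of these, 0, 4 and 4 had an unadjusted p under 0.05, against 4.13%, 9.47% and 8.4% of the 7015 genes detected on all arrays. The median log2 fold change of the 19 members was -0.08, 0.13 and 0.32 in the 3 contrasts, and that of all genes 0.00, -0.02 and -0.02.

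The monocyte and myeloid attractants Ccl9 and Ccl8 had the largest positive log2 fold changes on βL among the members detected on every array, against control and against CR. Ccl9 read 8.45 and 8.66 on the log2 scale in control muscle, 8.09, 7.19 and 8.15 on CR, and 9.89, 8.90 and 9.47 on βL. All βL arrays lay above all others and all CR arrays below both controls. The log2 fold change was 1.60 for βL against CR (SE 0.31, 3.04-fold, adjusted p = 0.217), 0.86 for βL against control (SE 0.34, adjusted p = 0.441) and -0.74 for CR against control (SE 0.34, adjusted p = 0.938).

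Ccl8 read 6.87 and 7.50 in control muscle, 7.73, 6.64 and 6.66 on CR, and 9.34, 7.40 and 8.62 on βL. βL replicate 2 lay within the range of the other diets while the other βL arrays lay above it. The log2 fold change was 1.45 against CR (SE 0.48, adjusted p = 0.419) and 1.27 against control (SE 0.53, adjusted p = 0.460). With βL replicate 2 left out the values were 1.97 (adjusted p = 0.118) and 1.79 (adjusted p = 0.216), and for Ccl9 against CR 1.86 (adjusted p = 0.0825). With βL replicate 1 left out, Ccl8 was at 0.83 against control and Ccl9 at 0.63.

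Ccl6, the rodent chemokine encoded beside Ccl9, was above background on 3 muscle arrays. It read 5.03 and 5.49 in control, 5.16, 4.92 and 5.37 on CR and 6.65, 5.36 and 5.74 on βL. It was above background on no CR array and on 2 βL arrays. By the measure used for the tissues βL was 1.32-fold above CR (adjusted p = 0.487), though βL replicate 2 was at background. Ccl11, on the same chromosome, read 9.63 and 9.97 in control, 9.90, 9.77 and 9.88 on CR and 10.53, 10.18 and 9.80 on βL, with overlap and a log2 fold change of 0.37 against control (SE 0.22, adjusted p = 0.606). The second probe of Ccl11, also above background on all muscle arrays, gave 0.02 for βL against control (SE 0.24) and -0.01 for βL against CR (SE 0.22).

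**Figure D3:**
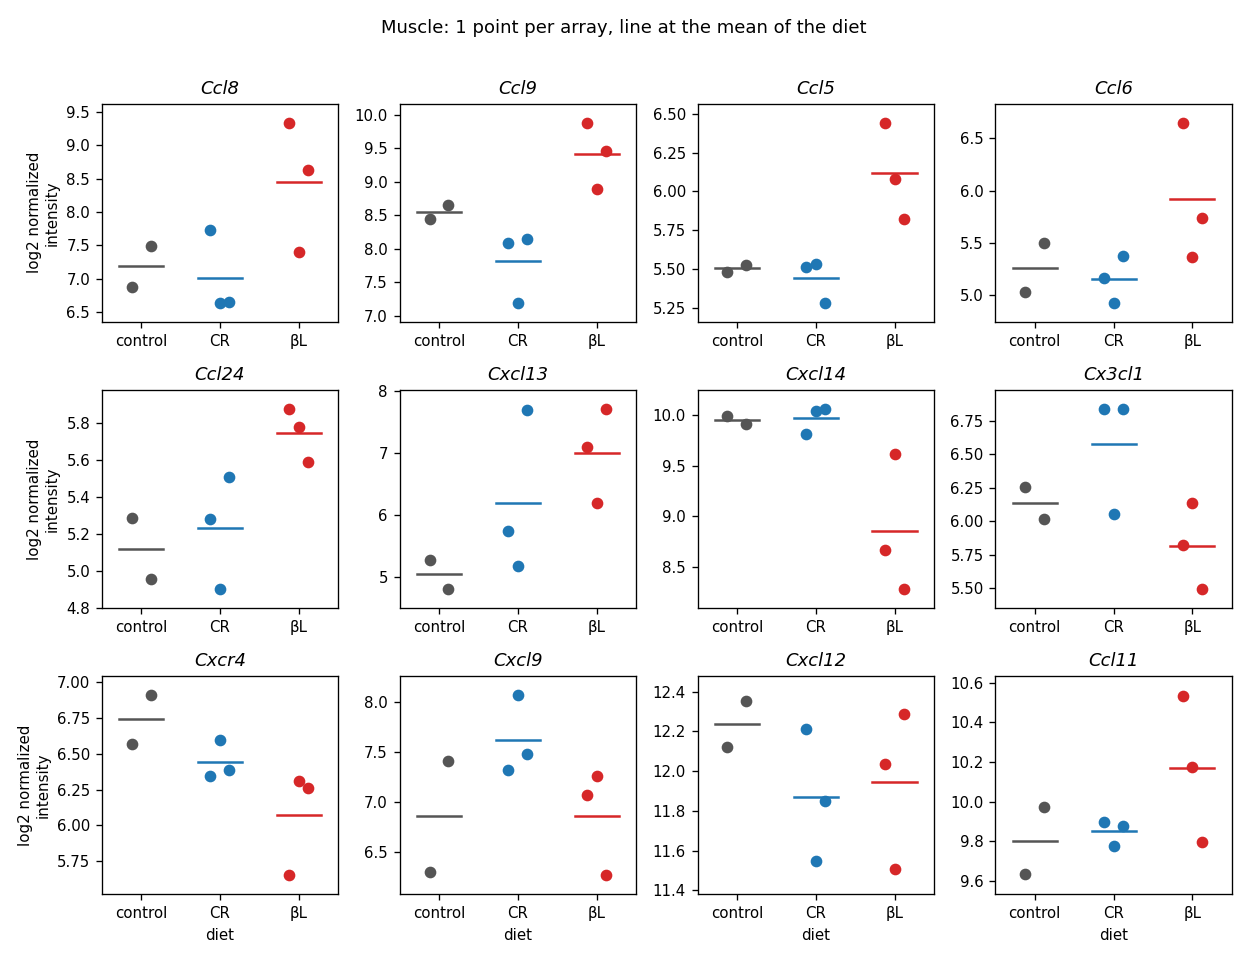
Log2 normalized intensity of 12 members in muscle, with a scale of its own for each gene. Each point is an array, and lines are means of 2 control, 3 CR and 3 βL arrays; Ccl9 and Ccl5 were higher and Cxcl14 lower on all βL arrays than on any other array, and βL replicate 2, the middle βL point, lay nearest to the other diets for Ccl8, Ccl9 and Cxcl14.

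Cxcl14, a chemokine made constantly by epithelia and other tissues, lay the other way. Its log2 intensity was 9.99 and 9.91 in control muscle, 9.81, 10.03 and 10.06 on CR, and 8.67, 9.62 and 8.29 on βL. All βL arrays lay below the other 5, which spanned a narrow range. The log2 fold change was -1.09 against control (SE 0.33, adjusted p = 0.368) and -1.11 against CR (SE 0.29, adjusted p = 0.312), and 0.02 for CR against control (SE 0.33, adjusted p = 0.998). Without βL replicate 2 Cxcl14 was called in both, at -1.47 against control (adjusted p = 0.0441) and -1.49 against CR (adjusted p = 0.0213). The second probe of Cxcl14 gave -0.61 against control (SE 0.34) and -0.79 against CR (SE 0.30), the same direction at a smaller size. Its adjusted p-values were 0.591 and 0.481 in limma when every probe was tested alone. On this probe the diets overlapped, as βL replicate 2 read 7.52 and both control arrays 7.32.

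The pair of Cxcl12 and Cxcr4 was detected on all muscle arrays. Cxcr4 read 6.57 and 6.91 in control, 6.35, 6.59 and 6.38 on CR and 5.65, 6.31 and 6.26 on βL. All βL arrays lay below the other 5, at -0.66 against control (SE 0.22, adjusted p = 0.384) and -0.37 against CR (SE 0.20, adjusted p = 0.596). Its ligand Cxcl12 read 12.12 and 12.35 in control, 12.21, 11.55 and 11.85 on CR and 12.04, 11.51 and 12.29 on βL, so that all diets overlapped. Its log2 fold change against control was -0.29 on βL (SE 0.26, adjusted p = 0.739, 95% interval -0.88 to 0.30) and -0.37 on CR (SE 0.26, adjusted p = 0.938). The other detected probes of Cxcl12 gave -0.42 (SE 0.31) and -0.61 (SE 0.27) for βL against control, with adjusted p-values of 0.694 and 0.505 when every probe was tested alone.

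Cx3cl1 read 6.26 and 6.02 in control muscle, 6.84, 6.05 and 6.84 on CR and 5.82, 6.14 and 5.49 on βL. CR and βL overlapped by 1 array each, and the log2 fold change of βL against CR was -0.76 (SE 0.25, adjusted p = 0.414). Cxcl9 read 6.30 and 7.41 in control, 7.32, 8.07 and 7.48 on CR and 7.06, 7.26 and 6.26 on βL. Its 2 control arrays lay farther apart than the means of any 2 diets, and all βL arrays lay below all CR arrays. The log2 fold change was 0.77 for CR against control (SE 0.39, adjusted p = 0.938) and -0.76 for βL against CR (SE 0.35, adjusted p = 0.540). Ccl25 read 7.77 and 7.36 in control, 7.13, 7.28 and 7.59 on CR and 7.26, 7.56 and 7.06 on βL, with overlap in every contrast and a log2 fold change of -0.28 on βL against control (SE 0.21, adjusted p = 0.695).

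Among members above background on only some muscle arrays, Ccl5 had the smallest p in both contrasts of βL. Ccl5, which attracts T cells and monocytes, read 5.48 and 5.53 in control, 5.51, 5.53 and 5.28 on CR and 6.44, 6.08 and 5.83 on βL. It was above background on all 3 βL arrays, 1 control array and no CR array. The log2 fold change against control was 0.61 (SE 0.19, adjusted p = 0.382), and βL was at least 1.51-fold above CR (adjusted p = 0.312). Cxcl13, which guides B cells through Cxcr5, read 5.29 and 4.81 in control, 5.75, 5.18 and 7.69 on CR and 7.11, 6.20 and 7.72 on βL. Both control arrays were at background, and βL was at least 2.86-fold higher (adjusted p = 0.389). For CR, with 2 of 3 arrays above background, the same measure gave 1.64-fold (adjusted p = 0.938), which is not a strict bound. CR replicate 3 lay close to the highest βL array. Cxcr5 itself was above background on 2 βL arrays only, by the same measure 1.10-fold above control (adjusted p = 0.448).

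Ccl24, an eosinophil attractant, read 5.29 and 4.96 in control, 5.28, 4.90 and 5.51 on CR and 5.88, 5.78 and 5.59 on βL. Both control arrays were at background, and βL was at least 1.20-fold higher (adjusted p = 0.383). Ccl19 read 6.36 and 5.32 in control, 5.42, 5.16 and 5.15 on CR and 5.68, 5.40 and 5.68 on βL, with the smallest p for CR against control. By the same measure control was 1.25-fold above CR (adjusted p = 0.938), but only 1 of 2 control arrays was above background, and without control replicate 1 the log2 fold change was -0.08. The other detected members, Ccl7, Ccl12, Cxcl10 and Cxcl16, had adjusted p-values of 0.522 or more in the contrasts with control.

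**Figure D4:**
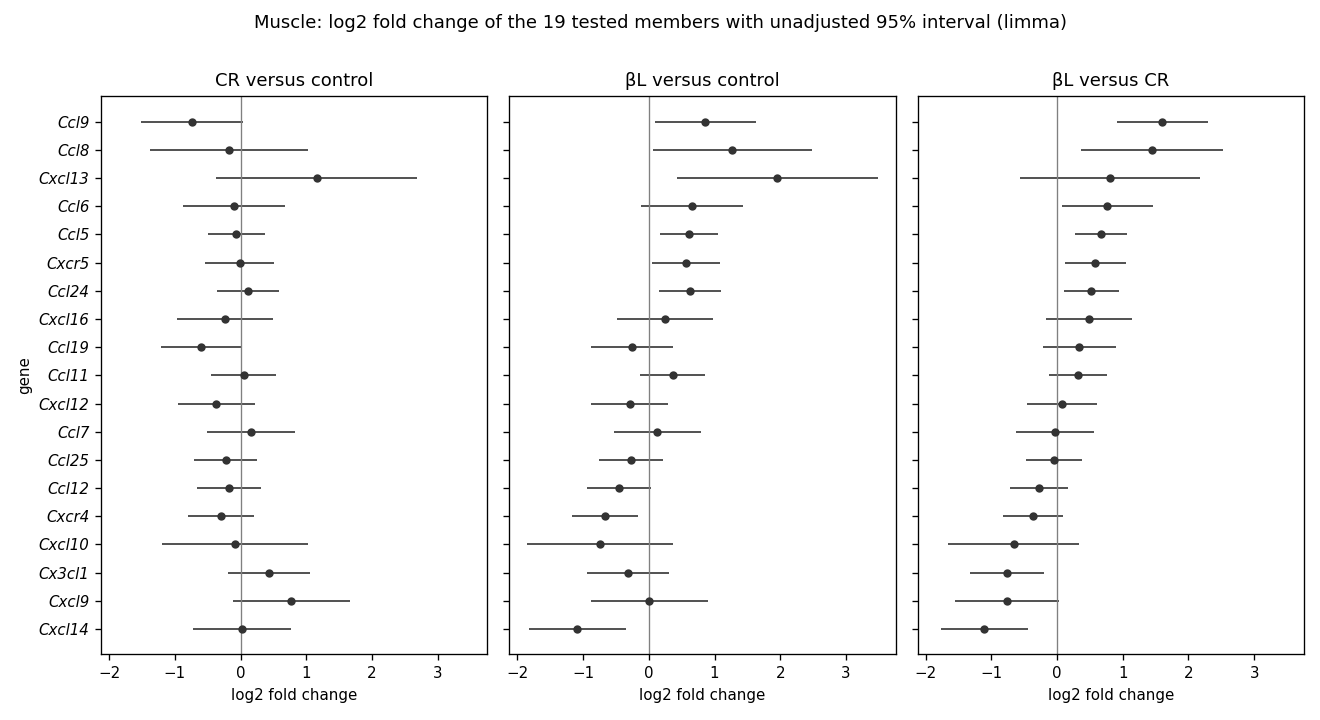
Log2 fold changes of the 19 members tested in muscle for the 3 diet contrasts, ordered by βL against CR. Points are limma estimates and bars their unadjusted 95% intervals; Ccl9 was at 1.60 and Cxcl14 at -1.11 for βL against CR, and no member had an adjusted p under 0.05.

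Leaving out control replicate 1 reduced the members at an unadjusted p under 0.05 for βL against control from 8 to 5 and leaving out control replicate 2 to 3 of 18, and for CR against control the counts were 1 and 3. For βL against CR, leaving out 1 of the βL or CR arrays gave 4 to 9 in place of 8, with 4 without βL replicate 1 and 5 without CR replicate 1 or 2. For βL against control the count was also 5 without βL replicate 1. Without control replicate 1 the log2 fold changes for βL against control were -1.05 for Cxcl14, 0.76 for Ccl9, 0.95 for Ccl8 and -0.83 for Cxcr4. Other values not called moved by over 1.5 times without this array. For βL against control Ccl11 was then at 0.20, Ccl25 at -0.07, Cx3cl1 at -0.20 and Ccl6 at 0.42. For CR against control Cxcl14 was at 0.06 and Cxcl9 at 0.21, and Cxcl9 was at 1.33 without control replicate 2. Without CR replicate 2, Ccl9 for CR against control was at -0.43, and without βL replicate 1, Ccl11 for βL against control was at 0.18 and Cxcr4 for βL against CR at -0.15.

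Markers of blood, immune and fat cells differed between the same arrays. Of 13 macrophage and microglia genes 12 were tested in muscle, and all 12 lay above 0 for βL against control, 6 of them at an unadjusted p under 0.05 and none called, with a median log2 fold change of 0.69. Their summed intensity was 3711 and 5576 in control, 3085 to 4888 on CR, and 12590, 5676 and 9091 on βL, again with βL replicate 2 nearest to control. Itgam was the marker below the detection filter. Neutrophil genes (4 of 7 tested) summed to 130 and 285 in control, 192 to 275 on CR and 307 to 823 on βL, and red cell genes (3 of 4) to 17600 and 22780, 19700 to 27510 and 44030 to 60220. Adipocyte genes (4 of 5) summed to 1281 and 5546 in control, 3407 to 7560 on CR and 4837 to 12000 on βL. Of the T cell genes 1 of 6 was detected, at 27.9 to 46.6 in control and CR and at 80.2, 39.6 and 81.8 on βL. Of the B cell genes 1 of 4 was detected, at 29.2 to 84.4 in control and CR and at 206.8, 60.3 and 51.9 on βL. Platelet genes (4 of 4) summed to 328.8 to 486.5 in control and CR and to 585 to 679 on βL, with no overlap. The platelet genes did not move together, as 2 of 4 lay above 0 for βL against control. At an unadjusted p under 0.05, 1 was higher and 1 lower. The genes Cd3e, Cd4, Cd8a, Ms4a1 and Cd79a did not pass the filter. The part of these markers in the chemokine values was not tested. In whole tissue more cells of a type and more RNA per cell cannot be told apart.

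In brain 11 members could be compared, and none was called for any diet (limma, adjusted p under 0.05), against 0.231% of all 9956 genes for CR against control, 0.331% for βL against control and 0.281% for βL against CR. At an unadjusted p under 0.05 there were 2 members for CR against control (8.15% of genes), 4 for βL against control (8.73%) and 1 for βL against CR (9.36%). The methods' t-test gave 1, 1 and 0, against 6.93%, 7.81% and 7.36% of genes. Of the 6 members above background on all brain arrays, 0, 2 and 1 had an unadjusted p under 0.05 in limma, against 7.18%, 7.61% and 8.6% of the 8833 genes detected on all of them. The median log2 fold change of the 11 members was -0.05, 0.04 and 0.06, and that of all genes 0.00 in the first 2 contrasts and -0.01 in the last.

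The monocyte attractants Ccl12 and Ccl4 had the smallest p-values against control. Ccl12 read 6.19 and 5.69 on the log2 scale in control brain, 5.56 and 5.20 on CR and 5.09 and 4.82 on βL. Control lay above CR and CR above βL with no overlap. Both βL arrays and CR replicate 2 were at background, and control was at least 1.65-fold higher than βL (adjusted p = 0.222). The log2 fold change of CR against control was -0.56 (SE 0.20, adjusted p = 0.549), and -0.31 without control replicate 1. The second probe of Ccl12 lay the same way, at -0.67 for βL (SE 0.12) and -0.39 for CR (SE 0.12), with adjusted p-values of 0.194 and 0.546 when every probe was tested alone. Ccl4 read 5.65 and 5.83 in control, 5.21 and 5.13 on CR and 5.07 and 5.47 on βL. It was above background on both control arrays and on no CR array, at least 1.40-fold higher in control (adjusted p = 0.368), and at -0.48 for βL against control (SE 0.15, adjusted p = 0.436), which was -0.28 without βL replicate 1.

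Ccl9 read 5.81 and 6.03 in control brain, 5.84 and 5.50 on CR and 5.60 and 5.57 on βL. βL lay below control, at -0.34 (SE 0.14, adjusted p = 0.565) and -0.22 without control replicate 2, where the same probe had lain above control in muscle. Cxcl12 read 10.32 and 10.38 in control, 10.22 and 10.38 on CR and 10.60 and 10.71 on βL. Both βL arrays lay above the other 4, at 0.31 against control (SE 0.10, adjusted p = 0.444) and 0.35 against CR (SE 0.10, adjusted p = 0.388). The 2 other detected probes of Cxcl12 gave 0.03 (SE 0.11) and 0.07 (SE 0.12) for βL against control, within their error of 0. For βL against CR these probes gave 0.11 (SE 0.11) and 0.26 (SE 0.12), the same direction at a smaller size. Their adjusted p-values against CR were 0.779 and 0.571 in limma when every probe was tested alone.

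No diet contrast of the fractalkine pair was called. Cx3cl1 read 12.09 and 12.17 in control brain, 12.19 and 12.15 on CR and 12.27 and 12.20 on βL, which put βL above both other diets by 0.11 and 0.06 (SE 0.08, adjusted p = 0.780 and 0.839). The 95% interval against control was -0.09 to 0.31. Cx3cr1 read 9.50 and 9.68 in control, 8.80 and 9.64 on CR and 9.58 and 9.76 on βL. CR replicate 1 was the lowest array, and the log2 fold change of CR against control, -0.37 (SE 0.26, adjusted p = 0.779), was 0.06 without it and -0.78 without CR replicate 2 (adjusted p = 0.300). Cxcl14 read 9.41 and 9.54 in control, 9.56 and 9.39 on CR and 9.45 on both βL arrays, a log2 fold change of -0.02 for βL against control (SE 0.10, 95% interval -0.26 to 0.22, adjusted p = 0.977). The second probe of Cxcl14 gave -0.07 for βL against control, -0.24 for βL against CR and 0.16 for CR against control (SE 0.10 for each). Tested alone in limma, it had adjusted p-values of 0.890, 0.531 and 0.761. Ccl25 read 7.57 and 7.82 in control, 7.45 and 7.99 on CR and 7.65 and 7.45 on βL, at -0.14 for βL against control (SE 0.19, adjusted p = 0.896). Ccl17, a T cell attractant above background on 1 CR and 1 βL array, read 5.0 and 5.25 in control, 6.10 and 5.20 on CR and 5.26 and 5.25 on βL. By the measure used above CR was 1.31-fold above control (adjusted p = 0.708), which rests on CR replicate 1, as CR replicate 2 was at background.

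**Figure D5:**
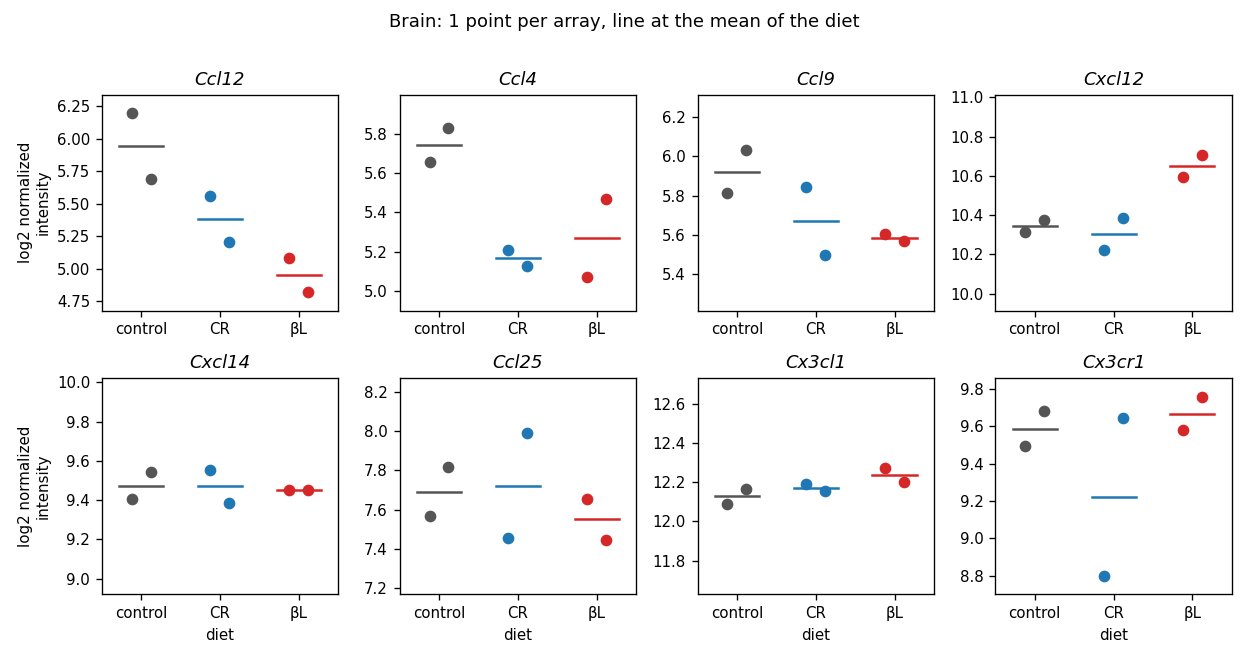
Log2 normalized intensity of 8 members in brain, with a scale of its own for each gene. Each point is an array, and lines are means of 2 arrays; Ccl12 was 5.69 or more in control and 5.09 or less on βL, Cxcl12 was 10.60 or more on βL and 10.38 or less elsewhere, and the low Cx3cr1 value is CR replicate 1.

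Of the macrophage and microglia genes 11 of 13 were tested in brain, and 1 was called lower for CR against control and 2 for βL. Lyz2 was lower at -0.93 (SE 0.10, adjusted p = 0.0316) on CR and -1.24 (adjusted p = 0.00885) on βL, and Cd14 at -1.16 (SE 0.11, adjusted p = 0.0127) on βL. Their summed intensity was 7897 and 7844 in control, 6573 and 6245 for CR, and 5506 and 5783 for βL, an order that Ccl12 shared. Neutrophil genes (6 of 7 tested) summed to 1057 and 969.8 in control and to 222 to 246 on the other diets, with 3 called lower on each. Red cell genes (2 of 4) summed to 5853 and 5794 in control, 4607 and 4294 for CR, and 10690 and 11730 for βL. The genes of the liver list that were tested (3 of 6, Apoa1, Apoa2 and Ttr) summed to 12620 and 11300, 3586 and 3505, and 26860 and 24260. These 3 genes did not move together. For βL against control 2 were higher and 1 lower at an unadjusted p under 0.05, and for CR against control 1 lay above 0. Itgam, Cd163 and Retnlg were not above background on at least 2 arrays. The part of these markers in the values of Ccl12, Ccl4, Ccl9 and Cxcl12 was not tested.

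Whether a diet acted differently in the 2 tissues was tested as an interaction over the 14 arrays. No member was called for CR, against 0.00929% of genes, and 0 of 22 had an unadjusted p under 0.05 (4.78% of genes). For βL none was called either, against 0.0372% of genes, and 7 of 22 had an unadjusted p under 0.05 (7.78%). These were Ccl5, Ccl24, Cxcl13, Cxcl14, Ccl9, Ccl8 and Cxcr5. Ccl5, Ccl24 and Cxcr5 passed the filter mostly or only through the muscle βL arrays, and Cxcl13 was above background on no muscle control array. This favours a higher βL effect in muscle, so the count says little about chemokines. Ccl5 had the lowest adjusted p, 0.380, at 0.88 for the effect in muscle minus that in brain (SE 0.26). Ccl9 was at 1.05 (SE 0.42, adjusted p = 0.556) and Cxcl14 at -0.99 (SE 0.39, adjusted p = 0.555), and both were detected in both tissues. Without muscle βL replicate 2 Cxcl14 was called. Ccl5, Ccl8, Cxcl13 and Cxcr5 were above background on no brain array, so that their brain effect is one of background signal. Ccl24 was above background on only 1 brain array.

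Other genes of chemokine function outside the symbol pattern gave no call in any of the 6 diet contrasts. Of 37 tested in muscle, 4 were higher and 0 lower at an unadjusted p under 0.05 for βL against control, 6 and 0 for βL against CR, and 1 and 2 for CR against control. The 4 higher were 10.8% of the list, against 5.57% of all genes higher and 10.4% in either direction, and the 6 higher were 16.2%, against 5.25% and 9.62%. Of 38 tested in brain the counts were 0 and 4, 0 and 3, and 1 and 3, where 10.5%, 7.89% and 7.89% lower stand against 4.72%, 4.55% and 4.66% of all genes. Among the atypical receptors and chemokines, Pf4, a platelet chemokine, was at 1.13 in muscle for βL against CR (SE 0.19, adjusted p = 0.150) and Ackr2, a scavenger receptor of CC chemokines, at 0.75 in muscle (SE 0.21, adjusted p = 0.339) and -0.52 in brain (SE 0.10, adjusted p = 0.205) for the same contrast. Of the known inducers, Tnf, Il6 and Ifng were not above background on at least 2 arrays of either tissue.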

How the data were processed

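RNA of 8 muscle and 6 brain arrays was grouped by tissue and diet from the sample labels. Intensities before normalization were deposited by the authors per probe and array, with detection p-values that BeadStudio 3.0 computes against negative control beads. A second deposited file holds the authors' quantile-normalized intensities, used as an alternative, and the methods name Avadis Prophetic 3.3 for fold changes. Here the background was modelled by normexp from the detection p-values (offset 16), followed by quantile normalization within a tissue and conversion to log2 in limma 3.58.1 under R 4.3.3. A probe had to reach a detection p under 0.05 on 2 or more arrays, and the brightest probe stood for a gene, which left 8898 genes in muscle, 9956 in brain and 10765 over both. For each tissue 1 linear model held all 3 diets (lmFit, eBayes), with Benjamini-Hochberg adjustment over all genes. The number of arrays limits the precision, and offset and background correction set the fold change of dim probes.

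Gene symbols came from the platform annotation (23978 of 25697 probes), and all 51 members matched RefSeq. The members and marker lists were chosen with earlier results of these data known. Values were given for members above background on all arrays of a tissue, for the 5 with the smallest p per contrast where none was called, and for others named in the text after their values were seen. The fits were tested on simulated data. Other background corrections, offsets, filters, normalizations and tests were tried, and each array was left out in turn. No promoter was printed for members without an entry in the table used.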

Additional observations from a re-analysis of the deposited data

How the results depend on the processing

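The absence of called members held in 3 muscle and 3 brain diet contrasts without background correction, with the deposited normalized intensities, an offset of 50, all 14 arrays normalized together, no filter, a detection p under 0.01, every probe on its own, only the 2 groups compared, array weights and the methods' t-test. The exceptions were 1 member for βL against control in brain with a replicate block (Ccl12, adjusted p = 0.0353, against 0.222 without it) and, with 1 array left out, a range of 0 to 1 for βL against control and against CR in muscle and for the βL interaction (Cxcl14, without βL replicate 2). The causes were not tested. The replicate block changed no other call, and arrays of the same number correlated at -0.215 to 0.192 in their deviations from the group means, so that the numbers are not shown to pair arrays. With the replicate numbers of brain βL crossed, an alternative chosen after seeing the data, 0 members were called for βL against CR, as with the numbers as labelled in that contrast. That fit left out the control arrays, so it does not bear on the Ccl12 call for βL against control. Members detected fell from 19 to 12 in muscle and from 11 to 7 in brain at a detection p under 0.01, and to 9 and 6 when all arrays were asked for. At a detection p under 0.01, 11 of 14 members were called for brain versus muscle. Without a filter 23 were called, and 18 to 21 with 1 array left out.

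Members at an unadjusted p under 0.05 numbered 3 to 9 over the other settings for βL against control in muscle, 3 to 11 for βL against CR, 0 to 3 for CR against control, and in brain 1 to 9, 0 to 3 and 1 to 6. None of the 23 diet values at an unadjusted p under 0.05 changed sign under any setting, whereas 32 of the other 67 did under at least 1, among them Cxcl9 for βL against control in muscle and Cx3cr1 for CR against control in brain. Sizes of dim members depended on the background: without its correction Cxcl13 was at 0.80 for βL against control in muscle (1.96 with it), Cxcr4 at -0.27 (-0.66), Ccl12 in brain at -0.54 (-0.99), and Cxcl14 at -0.90 (-1.09). Dim probes near background limit most members, and a fit left with 1 control array assumes that it varies like the other groups.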

Other observations

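In muscle the 2 probes of Ccl12 disagreed. For βL against CR the brighter probe was at -0.28 (SE 0.20) and the other at 0.53 (SE 0.38), with adjusted p-values of 0.699 for each when every probe was tested alone. The intensity of the other probe before normalization was 211 on βL replicate 1 and 137.5 to 189.5 on the remaining 7 arrays.

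Cxcl10, which interferon-γ induces, differed most between the 2 control arrays of muscle among the tested members, at 5.0 and 7.09 on the log2 scale, and was at 5.67 to 6.30 on CR and 5.12 to 5.52 on βL. All βL arrays lay below all CR arrays, at -0.66 (SE 0.44, adjusted p = 0.672). Cxcl10 was above background on all 3 CR arrays but on only 1 control and 1 βL array. It passed the filter mostly through CR, which favours a higher CR value, and control replicate 1 was at background.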
